A study of Mus musculus with 6 samples.

Results

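Contactins and the L1 family are immunoglobulin cell adhesion molecules that sit on growing axons. Their transcripts were read in the cortex of newborn mice, wild type or mutant for the co-repressor Tle4. The 10 genes were taken by name from the deposited gene table: the contactins Cntn1, Cntn2, Cntn3, Cntn4, Cntn5 and Cntn6, and L1cam, Chl1, Nrcam and Nfasc of the L1 family. Each has 1 row among the 23621 genes of the table, and all 10 had enough counts to be tested. RNA came from cortex at postnatal day 0, in 3 libraries of wild-type and 3 of Tle4-/- null mice, all of mixed C57BL/6J, 129S6 and CD1 descent. The labels call both genotypes littermates but do not say which library belongs to which litter or that each library is a separate animal, so p-values measure the spread between these samples. They do not describe how the null allele was made and give no sex. In bulk tissue, fewer cells of a type and less RNA per cell cannot be told apart.

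Contactins are held to the outer membrane by a lipid (glycosylphosphatidylinositol) anchor and signal through partners on the same or the facing cell. L1 family proteins cross the membrane, and their short tails bind ankyrins, which tie them to the spectrin skeleton of the axon. Both groups guide axons and bundle them into tracts before birth, and later help to build the axon initial segment and the nodes of Ranvier. Tle4 is a Groucho-family protein that represses genes through the DNA-binding factors that recruit it, and it is found in deep-layer cortical neurons.

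Libraries held 18617408 to 21632607 counts. As a check of the labels, Tle4 counts were 3091 to 3884 in wild types and 1481 to 1664 in mutants, without overlap. The mutants thus kept 0.48 times the wild-type level of this RNA (log2 fold change -1.06, edgeR adjusted p = 0.0377), and Tle4 protein was not measured here. With 1 library left out that adjusted p ran from 0.0306, without wild-type replicate 2, to 0.162 and missed the threshold in the other 5 fits. All 8 cortical markers were detected in every library, with a summed level of 2357 to 2753 counts scaled to library size (CPM) in the wild types and 2198 to 2670 in the mutants. Xist had 11 to 37 counts in the wild types and 66194 to 79080 in the mutants, so a difference tied to Xist and one tied to the genotype cannot be told apart. For Ddx3y, a Y-linked gene, the wild types held 1463, 1891 and 2 counts (replicates 1, 2 and 3) and no mutant more than 2, so wild-type replicate 3 was low in both genes. The 8 meningeal markers summed to 13.3 CPM in wild-type replicate 1, with Aldh1a2 at 0 counts, against 178 and 496 in the other wild types and 191 to 404 in the mutants. Choroid plexus markers summed to 96.2 CPM in mutant replicate 3 and to 0.327 to 1.77 in the other 5 libraries. Nearly all of the 96.2 CPM was Ttr, at 93.3 CPM. Folr1 and Otx2, both rare, were also highest in that library, while Kcne2 was highest in wild-type replicate 3 (1.29 CPM). Of 12 striatal markers 11 had log2 fold changes below 0 (median -0.72), and their sum was 197.7 to 289 CPM in the wild types and 149 to 197.6 in the mutants. The part of striatal tissue and of Xist in the values of the 10 genes was not tested.

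Of the 10 genes, Cntn6 differed most between the genotypes, at 1.73 times the wild-type level in the mutant. Nrcam stood at 1.26 times, and the other 8 lay between 0.825 and 1.31 times. None of the 10 passed the threshold of 0.05 in edgeR's quasi-likelihood test after adjustment over the 16274 genes tested, where 18 genes, or 0.111%, did. At an unadjusted p under 0.05 there were 2 of the 10, Cntn6 and Nrcam, both higher in the mutant, against 3.45% of all genes tested in either direction and 1.71% in that one. Mutant and wild-type levels did not overlap for 1 of the 10, Cntn6, against 7.93% of all genes and 4.18% in that direction. The 10 genes were chosen with earlier results of these data known, so these shares are no test of the group. The log2 fold change was above 0 for 7 of the 10, with a median of 0.19, while the median over all genes tested was -0.005. The DESeq2 Wald test called Cntn6 (adjusted p = 0.000995) among 58 genes, 0.357% of those it tested, and none of the other 9.

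**Figure D1:**
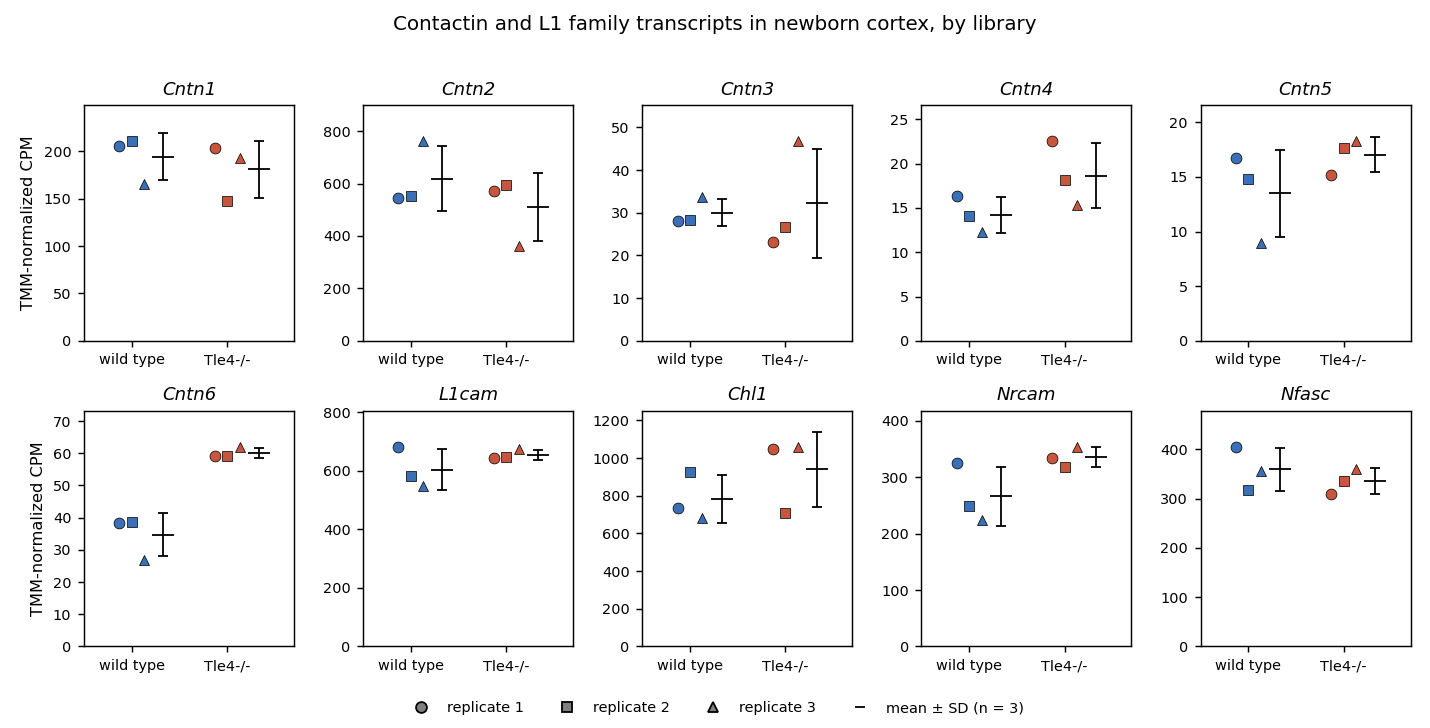
TMM-normalized CPM (vertical axes, from 0) of the 10 genes in each of the 3 wild-type and 3 Tle4-/- libraries, with 1 symbol per replicate number and the mean ± SD of each genotype as a bar. Only in the Cntn6 panel do all 3 mutant points, at 59.0 to 61.95 CPM, lie above all 3 wild-type points.

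Cntn6 encodes the contactin also called NB-3, which is known from the dendrites of deep-layer cortical neurons and binds Notch and receptor tyrosine phosphatases. Normalized to library size with TMM factors, it stood at 38.5, 38.8 and 27.0 CPM in wild-type replicates 1, 2 and 3 and at 59.0, 59.2 and 61.95 CPM in the mutants. The mutant libraries lay close together, while wild-type replicate 3 stood below the other wild types, and the genotypes did not overlap. The means were 34.8 ± 6.73 and 60.05 ± 1.64 CPM (SD, n = 3 each), a log2 fold change of 0.79 (SE 0.15, 95% interval 0.45 to 1.12), or 1.73-fold with an interval of 1.37 to 2.18. The unadjusted p was 0.000431, which placed Cntn6 at rank 38 of all genes tested, and the edgeR adjusted p was 0.184. Leaving out 1 library at a time, the log2 fold change ran from 0.64, without wild-type replicate 3, to 0.88, and the edgeR adjusted p from 0.191 to 0.641. The authors' deposited table gives Cntn6 an adjusted p of 0.0103, the only one of the 10 genes under 0.05, where 0.288% of its genes are. An edgeR likelihood ratio test, tried after that was seen, gave an adjusted p of 0.00392 and called 0.356% of all genes and none of the other 9.

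Cntn6 is also used as a marker of subcerebral projection neurons, the deep-layer cells that Fezf2 specifies. In the same libraries Fezf2 had 1065 to 1530 counts in the wild types and 2674 to 3689 in the mutants (log2 fold change 1.31, edgeR adjusted p = 0.0117, and 0.0628 without mutant replicate 3). It was the one of 4 markers of these neurons to pass the threshold. The others were Crym at 0.55 (groups overlapped), Ldb2 at 0.35 (unadjusted p = 0.00711, groups did not overlap) and Bcl11b at -0.07, each with an edgeR adjusted p of 0.9996. The median of the 4, with Fezf2 itself among them, was 0.45. The part of these neurons and of Fezf2 in the Cntn6 value was not tested.

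The other contactins of the Cntn3 to Cntn6 subgroup, all of low abundance, differed less. Cntn4, which binds the amyloid precursor protein, was at 16.3, 14.05 and 12.2 CPM in the wild types and 22.5, 18.1 and 15.3 CPM in the mutants. Mutant replicate 3 lay below wild-type replicate 1, so the genotypes overlapped (log2 fold change 0.39, SE 0.19, 95% interval -0.03 to 0.82). The value was 0.24 without mutant replicate 1. Cntn5, called NB-2 and known from the auditory pathway, was at 16.7, 14.8 and 8.97 CPM in the wild types and 15.2, 17.6 and 18.2 CPM in the mutants. Wild-type replicate 3 was the low library again, and the other wild types lay within or near the mutant range. The log2 fold change was 0.34 (SE 0.23, interval -0.18 to 0.85), falling to 0.12 without wild-type replicate 3 and reaching 0.52 without replicate 1 of that genotype.

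Cntn3, also called BIG-1, was at 28.2, 28.2 and 33.7 CPM in the wild types and 23.1, 26.7 and 46.7 CPM in the mutants. Mutant replicate 3 stood above every other library and the other mutants below every wild type. The log2 fold change of 0.10 (SE 0.25) turned to -0.27 without that library and was 0.29 without mutant replicate 1. Mutant replicate 3 was also the library with the high sum of choroid plexus markers, nearly all of it Ttr, with 1789 counts against 1 to 5 elsewhere. The part of those markers in the Cntn3 value was not tested.

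Cntn1 and Cntn2 are the abundant contactins. Cntn2, or TAG-1, marks young axons that leave the cortex and was at 544, 551 and 761 CPM in the wild types and 573, 596 and 362 CPM in the mutants. Wild-type replicate 3 was highest and mutant replicate 3 lowest, while the other 4 libraries lay within 544 to 596 CPM. The log2 fold change was -0.28 (SE 0.22, interval -0.78 to 0.23), -0.08 without mutant replicate 3 and -0.10 without wild-type replicate 3. Cntn1, the contactin of paranodal junctions, ranged from 165 to 210.4 CPM in the wild types and from 147 to 203 CPM in the mutants (log2 fold change -0.10, SE 0.14). Over the fits that left out 1 library it ran from -0.20, without wild-type replicate 3, to 0.029, without mutant replicate 2, where its sign turned.

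Among the L1 family, Nrcam had the smallest p. This protein clusters sodium channels at nodes and takes part in semaphorin responses with neuropilins. It was at 325, 249.8 and 224 CPM in the wild types and 334, 319 and 354 CPM in the mutants. The mutants were the more uniform group, and wild-type replicate 1 lay inside their range while the other wild types lay below it. The log2 fold change was 0.33 (SE 0.13, interval 0.03 to 0.63), with an unadjusted p of 0.0331 and an edgeR adjusted p of 0.9996. Over the fits that left out 1 library it ran from 0.22, without wild-type replicate 3, to 0.50, without wild-type replicate 1, the library low in meningeal markers. With a score of the meningeal markers as a covariate it was 0.46 (edgeR unadjusted p = 0.002, adjusted p = 0.438).

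Chl1, the close homolog of L1 that guides thalamocortical axons, was at 733, 925 and 684 CPM in the wild types and 1050.0, 711 and 1059 CPM in the mutants. Mutant replicate 2 lay within the wild-type range and the other mutants lay above it (log2 fold change 0.27, SE 0.18, interval -0.14 to 0.67). The value was 0.17 without mutant replicate 3, 0.43 without mutant replicate 2 and 0.41 without wild-type replicate 2. L1cam, the founding member and the only one on the X chromosome, ranged from 548 to 681 CPM in the wild types and from 644 to 675 CPM in the mutants. Its log2 fold change was 0.12 (SE 0.10, interval -0.10 to 0.34), and the interval of the fold change ended at 1.26. With wild-type replicate 3 left out the log2 value was 0.054, with replicate 1 left out it was 0.21, and it was 0.19 with the meninges score as a covariate. Nfasc, which anchors the initial segment and the paranodal glial loops, ranged from 317 to 404.5 CPM in the wild types and from 309 to 361 CPM in the mutants. Its log2 fold change was -0.10 (SE 0.11, interval -0.35 to 0.15). With wild-type replicate 1 or 2 left out it was -0.007 or -0.18, with mutant replicate 1 or 3 left out -0.04 or -0.16, and -0.02 with the meninges covariate. The edgeR adjusted p of each gene but Cntn6 was 0.9996.

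**Figure D2:**
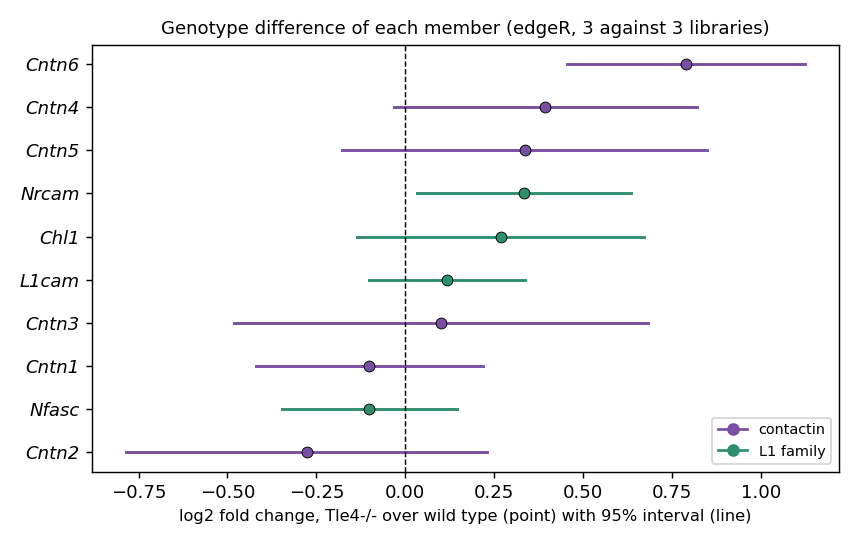
Log2 fold change of each gene, Tle4-/- over wild type (horizontal axis; point, estimate; line, 95% interval from the edgeR fit of 3 against 3 libraries), in order of the estimate and coloured by family. The unadjusted intervals of Cntn6 (0.45 to 1.12) and Nrcam (0.03 to 0.63) leave out 0, and those of the other 8 include it.

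In no library did all 10 genes lie on the same side of their genotype's mean. Expressed as log2 CPM minus the mean of the genotype, 8 of the 10 were below that mean in wild-type replicate 3, with Cntn5 lowest at -0.53 and Cntn6 at -0.34, while Cntn2 and Cntn3 were above it at 0.32 and 0.17. In mutant replicate 3 only 2 of the 10 were below the mean, Cntn2 at -0.46 and Cntn4 at -0.26, and Cntn3 was highest at 0.61. The share of all genes on each side of the mean was not counted. Mutant replicate 2 held the lowest mutant values of Chl1 and Cntn1, at -0.38 and -0.28. Coefficients of variation of CPM ran from 10.6% (Cntn3) to 29.8% (Cntn5) in the wild types. In the mutants they ran from 2.64% (L1cam) and 2.73% (Cntn6) to 39.6% (Cntn3).

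**Figure D3:**
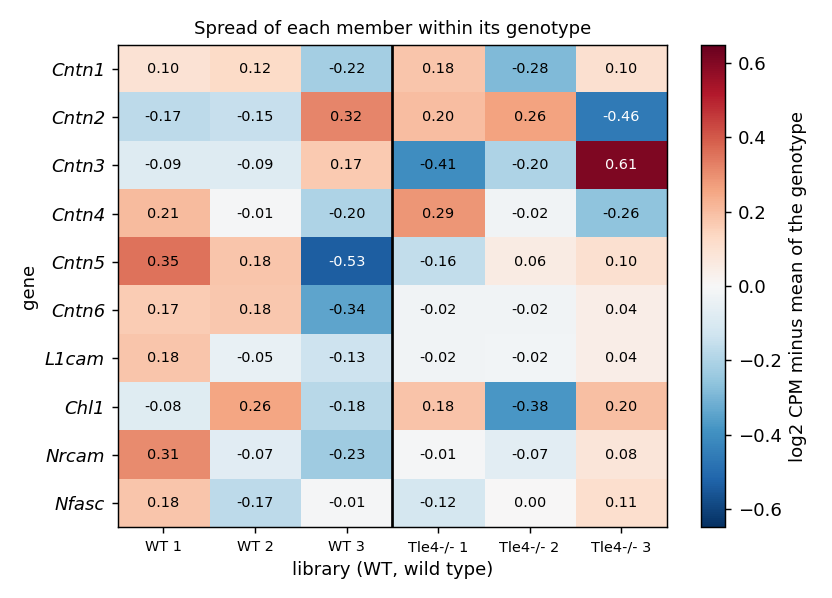
Log2 CPM of each gene in each library minus the mean of that genotype (colour and printed value), with genes in rows and the 6 libraries in columns. Cntn3 in mutant replicate 3 (0.61) and Cntn5 in wild-type replicate 3 (-0.53) stand farthest from their genotype's mean.

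Levels of different genes were compared per length with the deposited FPKM (fragments scaled to gene length and library size). From the highest mean over 6 libraries to the lowest, the order was Chl1 (61.6), L1cam (51.6), Nrcam (38.7), Cntn2 (28.5), Nfasc (19.0), Cntn1 (14.8), Cntn6 (5.71), Cntn3 (2.80), Cntn5 (2.74) and Cntn4 (1.11 FPKM). The ranges of neighbours did not overlap at only 2 steps, between Cntn1 and Cntn6 and between Cntn5 and Cntn4. Chl1 was above L1cam in 4 of the 6 libraries, and Cntn3 was above Cntn5 in 2 of 6, so these neighbours did not differ beyond their spread. L1cam was above Nrcam, Nfasc above Cntn1 and Cntn6 above Cntn3 in all 6 libraries.

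The L1 family's 4 genes summed to 160.1 ± 15.3 FPKM in the wild type and 182 ± 16.5 FPKM in the mutant, and the 6 contactins to 57.1 ± 3.14 and 54.3 ± 4.71 FPKM (SD, n = 3 each). As a share of the summed FPKM of all 10 genes, Cntn6 made up 1.93 ± 0.283% in the wild type and 3.06 ± 0.186% in the mutant. Among the rare contactins, the ratio of Cntn6 to Cntn5 was 1.55, 1.76 and 2.02 in wild-type replicates 1, 2 and 3 and reached 2.61, 2.25 and 2.28 in the mutants, without overlap. The ratio of Cntn6 to Cntn4 ran from 3.94 to 4.93 in the wild types and from 4.69 to 7.22 in the mutants, and overlapped. That of Cntn6 to Cntn3 ran from 1.07 to 1.84 in the wild types and from 1.78 to 3.42 in the mutants, and also overlapped. How often ratios of other gene pairs separate the genotypes was not counted.

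The order rests on the gene lengths behind the FPKM. Within a gene the FPKM was the count rescaled by 1 fixed length in every library, 19.8 kb for Cntn2 and 7.76 kb for Nrcam, whereas the GENCODE M21 exons of these genes cover 9.30 and 13.4 kb. With CPM per kb of GENCODE exons, an alternative tried after seeing the data, L1cam came first (85.6), then Chl1 (70.0), Cntn2 (60.7), Nfasc (24.5) and Nrcam (22.5), and the order of the other 5 was as before. Fold changes within a gene do not depend on this length.

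**Figure D4:**
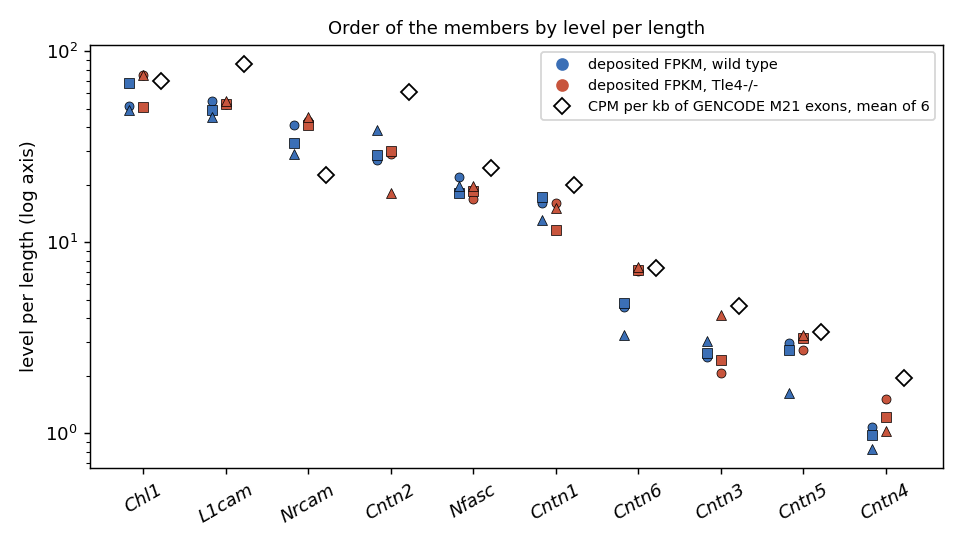
Level per length (vertical log axis) of the 10 genes in order of mean FPKM, with deposited FPKM of each wild-type (blue) and Tle4-/- (red) library and, as open diamonds, the 6-library mean CPM per kb of GENCODE M21 exons. Cntn2 lies at 28.5 on the first scale and 60.7 on the second, and Nrcam, at 38.7 and 22.5, is the one gene that is lower on the second.

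The genes are placed in groups along the genome. On GRCm38, chromosome 6 holds Cntn3 (102162655 to 102573101, minus strand), Chl1 (103510586 to 103750211, plus), Cntn6 (104492790 to 104863406, plus) and Cntn4 (105677660 to 106699310, plus). No other protein-coding gene is annotated in the 3 gaps of 937, 743 and 814 kb between them. On chromosome 1, Cntn2 (132509427 to 132543256, minus) and Nfasc (132564690 to 132741797, minus) lie 21.4 kb apart with no gene between. The other genes are Cntn5 on chromosome 9, Nrcam on chromosome 12, Cntn1 on chromosome 15 and L1cam on the X chromosome, and all 10 are protein-coding. Along chromosome 6 the log2 fold changes were 0.10, 0.27, 0.79 and 0.39, all above 0, and Cntn2 and Nfasc were at -0.28 and -0.10. The 95% intervals of these neighbours overlapped, and differences between neighbours were not tested. No annotated gene overlaps Cntn6, Cntn4, Cntn2 or Cntn1. L1cam overlaps Arhgap4 (mean count 130) and Avpr2 (3.5), and no annotated 50-base stretch of any of the 10 genes occurs in another of them.

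Promoter windows from RefSeq (GRCm38.p6, 250 bases before to 50 after each start) were found for all 10 genes, 16 windows in total. They were searched on both strands for short motifs of the DNA-binding families known to recruit Groucho proteins, none of which contains another. The TCF/LEF letters CTTTGA were in 4 of 16 windows, one each of Cntn6, Chl1, Cntn4 and Cntn1, and in 16% of all 32851 promoters. The HES letters CACNAG were in 6 of 16 windows, from 4 of the 10 genes, and in 42.5% of all promoters. The L1cam windows overlap each other and hold the same HES match. RUNX letters, TGTGGT, were in 2 of 16 windows (both Nfasc) and in 16.8% of all promoters. The Cntn6 window held 2 TCF/LEF matches, as did 1.73% of all promoters. Matches are shown for Cntn6 and its plus-strand neighbours on chromosome 6, which each carry at least 1. The Cntn1 match, 59 bases before its RefSeq start, is not shown, and Cntn1 had a log2 fold change of -0.10. Each sequence has 12 bases on each side of the motif, 5′ to 3′ on the gene's strand. The motif (CTTTGA, or TCAAAG where it lies on the other strand) is in capitals.
Cntn6, chr6:104492845-104492874, plus strand: gactatatctagTCAAAGaatgaggggggt
Cntn6, chr6:104492967-104492996, plus strand: agagaattttccCTTTGAatattccaaacg
Chl1, chr6:103510675-103510704, plus strand: gctaccctgtctCTTTGAgggcttagagat
Cntn4, chr6:106118805-106118834, plus strand: cccggtgtgcgtCTTTGAttcatacgctaa
The motifs start 187 and 65 bases before the RefSeq start of Cntn6, 189 before that of Chl1 and 125 before that of Cntn4. The gene starts given above lie upstream of these RefSeq starts, so the matches are inside the annotated genes. Of the 250 bases before the RefSeq start, all 250 lie in the gene's own GENCODE exons for Cntn6 and Chl1, and 177 for this Cntn4 window. The motifs are matches of letters only, and no binding was measured here.

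Of the molecules that contactins bind or signal through, 0 of 20 passed the edgeR threshold. At an unadjusted p under 0.05 there were 4 of 20, 3 higher and 1 lower in the mutant, against 3.45% of all genes, and the median log2 fold change was 0.07. Ptprz1, the receptor phosphatase of radial glia that binds Cntn1, was at 599 ± 68.8 CPM in wild types and 753 ± 41.4 CPM in mutants (SD, n = 3 each; log2 fold change 0.33, SE 0.10, edgeR adjusted p = 0.9996). Ncan, the chondroitin sulfate proteoglycan neurocan, had a log2 fold change of 0.18. The potassium channel subunits that Cntn2 gathers beside the node of Ranvier lay on opposite sides of 0: Kcna2 was at 22.1 ± 4.46 and 32.8 ± 4.65 CPM (log2 fold change 0.57), and Kcna1 at 7.02 ± 1.63 and 4.43 ± 0.966 CPM (-0.67). Genotypes did not overlap for 5 of 20, against 7.93% of all genes: these 4 and Cntnap5b (0.32), named after its values were seen. Ptprz1 and Ncan are also made by glial progenitors. The 6 astrocyte markers all had log2 fold changes above 0 (median 0.24), with 0 of 6 at an unadjusted p under 0.05, and summed to 534 to 851 CPM in the wild types and 755 to 818 in the mutants. Of 9 oligodendrocyte lineage markers 8 were above 0, with a sum of 291 to 333 CPM in the wild types and 343 to 369.6 in the mutants. Among these, Olig1 had a log2 fold change of 0.31 (unadjusted p = 0.0349, edgeR adjusted p = 0.9996) and did not overlap. The part of these cells in the 2 values was not tested.

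Of 27 genes that anchor, shed or signal with the L1 family, 0 passed the edgeR threshold and 0 had an unadjusted p under 0.05. The shares of all genes tested were 0.111% and 3.45%. The median log2 fold change of the 27 was 0.01. The ankyrins, spectrins and the neuropilin co-receptors are in this list. Among them, Nrp2 ran from 14.7 to 81.2 CPM in the wild types and from 15.25 to 82.1 CPM in the mutants. Its log2 fold change of -0.06 (95% interval -2.51 to 2.39) leaves the direction of any difference open. The smallest p belonged to Sema3a, a repellent ligand read by neuropilin with L1cam or Chl1 (-0.24, 61.3 ± 2.82 CPM in wild types and 51.9 ± 6.18 CPM in mutants; SD, n = 3 each). Next came the protease Adam17, which sheds L1cam (0.20), the plexin Plxna3 (0.13) and Gldn, gliomedin of peripheral nodes (-0.39, near 1 CPM in both genotypes).

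Of 24 other neuronal immunoglobulin adhesion genes, 0 passed the edgeR threshold, as 0.111% of all genes tested did. The median log2 fold change was -0.03. At an unadjusted p under 0.05 there was 1 of 24, against 3.45% of all genes, so the list did not stand out. That gene was Sdk1, a sidekick protein that matches synaptic partners in the retina. It was at 38.1 ± 3.57 CPM in wild types and 23.5 ± 0.784 CPM in mutants, without overlap (SD, n = 3 each; log2 fold change -0.70, SE 0.12), with an edgeR adjusted p of 0.132. The DESeq2 Wald test called Sdk1 lower (adjusted p = 0.000301), as the one gene called among these 3 lists, where it called 0.357% of all genes. Ncam2 had a log2 fold change of 0.32, Dscaml1 of -0.28 and Kirrel of -0.23.

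**Figure D5:**
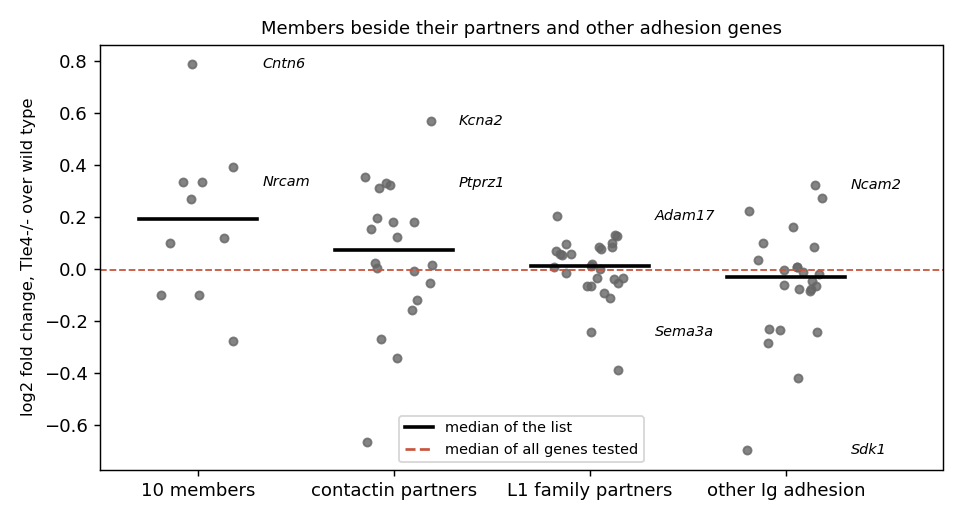
Log2 fold change, Tle4-/- over wild type (vertical axis), of the 10 genes and of the tested genes of each list (points, spread sideways at random), with the median of each list as a bar and the median of all genes tested as a dashed line. The medians are 0.19, 0.07, 0.01 and -0.03 from left to right, and Cntn6 at 0.79 and Sdk1 at -0.70 are the extremes.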

How the data were processed

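RNA-seq was available for 3 wild-type and 3 Tle4-/- cortex libraries. Per the file headers, the authors deposited 1 table with a count and an FPKM for every gene in each library, beside a p-value and its adjusted form from their comparison of the genotypes. Their mean FPKM was not used, nor was the authors' fold change column on its log2 scale. HISAT2 2.0.4, StringTie, edgeR, GRCm38.p4 and mm10 are named in the submitters' processing notes. For the annotation release, the counter and the strand setting, nothing is given in the sources used here. Of the 23621 gene IDs, 23456 are in GENCODE M21, and 9 of the 10 genes have the same start and end there.

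Counts were fitted over the whole table with edgeR 4.0.16 in R 4.3.3 (filterByExpr, TMM factors, robust quasi-likelihood fit, 2-sided test, Benjamini-Hochberg adjustment, threshold 0.05). The SE divides the absolute log2 fold change by the root of the test's F value, and 95% intervals use the fit's degrees of freedom. The steps were tested on simulated data. Alternatives used DESeq2 1.42.0, limma 3.58.1, other filters, FPKM with pseudocounts of 1 and 0.1, a replicate block, a meninges covariate, no sex-linked or mitochondrial genes, and each library left out.

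The 10 genes, the gene lists and the motifs were chosen with earlier results of these data known. Named genes are the 10, Tle4, and in each partner list any gene past the threshold plus the 4 with the smallest p. Fezf2, Bcl11b, Ldb2, Crym, Olig1, Xist, Ddx3y, Ttr, Kcne2, Folr1, Otx2, Aldh1a2, Arhgap4, Avpr2, Cntnap5b and Nrp2 were named beside that rule. Their values had been seen by then. Same-numbered libraries are not tied by the labels. Protein sequences were not used here.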

Additional observations from a re-analysis of the deposited data

How the results depend on the processing

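Cntn6 kept its direction in all 19 alternatives, with log2 fold changes from 0.64 to 0.88, and passed the threshold in 2 of them: the DESeq2 Wald test (0.78, adjusted p = 0.000995) and the edgeR likelihood ratio test, added after seeing the data (0.79, adjusted p = 0.00392). Those 2 tests each called 1 of the 10 genes, 1 partner gene (Sdk1) and 58 genes in all, against 0, 0 and 18. Leaving out 1 library at a time gave 8 to 19 genes in all, the fewest without mutant replicate 3, and 0 of the 10. The sign of 2 genes turned: Cntn1 gave 0.029 without mutant replicate 2 (-0.20 to 0.029 over the fits with 1 library left out), and Cntn3 gave -0.27 without mutant replicate 3 (-0.27 to 0.29). The other 7 kept their sign in every alternative run, L1cam in 18 because 1 leaves out the X chromosome. On log2(FPKM + 1), a scale that understates changes of low genes, Cntn4 gave 0.20. With a replicate block 9 genes passed in all and Cntn6 gave 0.81 (edgeR adjusted p = 0.418). Deviations of same-numbered libraries correlated at -0.06, 0.10 and -0.02 across genes, so the numbers were not taken as pairs. With the meninges score as a covariate Cntn6 gave 0.82 (edgeR adjusted p = 0.221). With 3 libraries a genotype, 95% intervals spanned 0.44 (L1cam) to 1.17 (Cntn3) on the log2 scale.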
